A study of Mus musculus with 12 samples.

Results

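The protocadherin family was followed across whole lungs of newborn mice with 1 or 2 working copies of Foxf1. Its members were all probes whose symbol in the annotation of the array starts with Pcdh. They numbered 94 probes for 65 genes, of 45263 intact probes for 19057 genes on the array. By name they fell into the alpha cluster (12 genes, 19 probes), the beta cluster (22 genes, 25 probes), the gamma cluster (20 genes, 23 probes) and 11 genes outside the clusters with 27 probes. The family was chosen on the fold changes of Pcdha6, Pcdha7 and Pcdhac2 between these same lungs, so all values of Foxf1+/- against wildtype lungs, and the calls that a fit over the whole array made for member probes, are given as a description and not as a test of the family.

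RNA came from whole lungs of 6 Foxf1+/- mice and of 6 wildtype littermates at postnatal day 0.5, 1 lung per Illumina MouseWG-6 v2.0 bead array, all of mixed 129/C57BL6/J background. The Foxf1+/- mice carried 1 Foxf1 allele without exon 1, which codes for the DNA-binding forkhead domain of this transcription factor of lung mesenchyme and endothelium. The allele arose from a floxed one by EIIa-Cre, which recombines broadly and in the germ line, so every cell type of the lung had the same genotype, and the model is not restricted to 1 cell type. Signals are log2 values after background correction and quantile normalization, and a difference of 1 unit stands for a fold of 2.00.

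Protocadherins are cell surface proteins of the cadherin superfamily. The clustered ones lie in tandem arrays, in which a choice among many first exons gives each cell its own set of proteins that bind the same protein on a neighbouring cell, and they are best known for self-recognition of neurons. Transcripts of the alpha cluster join different first exons to the same last exons, and those of the gamma cluster do so with last exons of their own, whereas each beta gene is a single exon. A probe in a shared exon therefore reads all transcripts of its cluster, and the position of the probes within the genes was not used here, so the symbol of an alpha or gamma probe need not name the only transcript that it reads.

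The arrays fell into 2 experiments by their raw signal, A with 4 Foxf1+/- and 2 wildtype lungs and B with 2 Foxf1+/- and 4 wildtype lungs, and raw medians per array spanned 57.3 to 89.3. The labels do not name the experiments, so that this split is inferred, and it is unbalanced between genotypes. Foxf1 itself averaged 10.83 ± 0.55 in Foxf1+/- and 11.56 ± 0.38 in wildtype lungs (SD, n = 6 each), a log2 fold change of -1.0 ± 0.13 (SE) with experiment in the fit. The tissue label was borne out by the epithelial genes Sftpc (13.57 in Foxf1+/- and 13.95 in wildtype lungs) and Scgb1a1 (14.38 in Foxf1+/- and 14.43 in wildtype lungs) and by endothelial Pecam1 (12.86 in Foxf1+/- and 12.33 in wildtype lungs), all far above the floor of the arrays. Of the neuronal markers, 8 of 12 measured ones lay near the floor in both genotypes, Tubb3, Elavl3 and Th among them, whereas Stmn2 averaged 10.07 in Foxf1+/- and 10.16 in wildtype lungs. Over all 33947 probes past the filter on low signal, 1007 (2.97%) were called for genotype at an adjusted p under 0.05 by limma, 415 lower (1.22%) and 592 higher (1.74%) in Foxf1+/- lungs. With scaling in place of quantile normalization these were 678, of which 181 were lower and 497 higher.

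Of the 94 protocadherin probes, 61 for 46 genes passed the filter. The share that passed was 47.4% of alpha, 56.0% of beta, 82.6% of gamma and 70.4% of unclustered probes, beside 75% of all intact probes. The 33 that failed had means of 5.85 to 6.01, at the floor, and include all 3 probes of Pcdh8, all probes of Pcdha1, Pcdha2, Pcdha3, Pcdha5, Pcdha9 and Pcdha12, and 8 beta genes. Of the 61 that passed, 27 were still within 0.5 of the lowest signals in both genotypes (a mean up to 6.38). Of the 61, 4 (6.56%) were called for genotype, all lower in Foxf1+/- lungs and all of the alpha cluster, beside 1.22% of all probes called lower, and these 4 are the probes for which the family was chosen. The median log2 fold change over the 61 probes was 0.00, as it was over all probes tested.

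**Figure D1:**
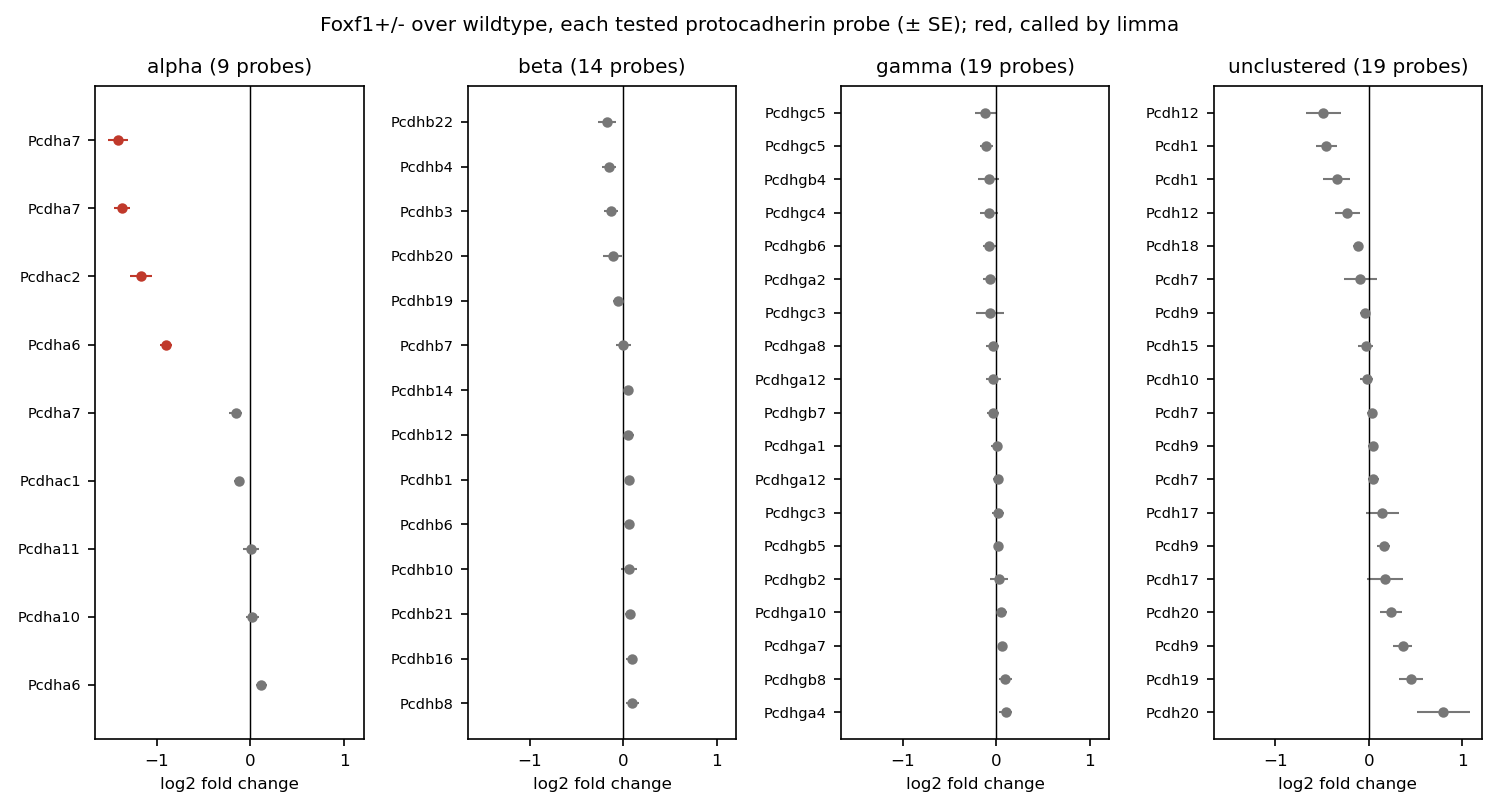
Log2 fold change of Foxf1+/- over wildtype lungs (x axis, with SE, n = 6 each) for each of the 61 protocadherin probes past the filter, by cluster, with called probes in red. The 4 called probes lie between -1.42 and -0.90, all in the alpha panel, and the 14 beta and 19 gamma probes all lie between -0.17 and 0.10.

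The alpha cluster held the 4 called probes, for Pcdha7 (2 probes), Pcdhac2 and Pcdha6, of 9 alpha probes past the filter. All 4 were lower in Foxf1+/- lungs. The brightest alpha probe (Pcdha7, ILMN_1250379) had a lowest, median and highest signal of 7.15, 7.44 and 7.68 in Foxf1+/- lungs, against 8.70, 8.83 and 9.04 in wildtype lungs. The groups were a full unit apart at their closest, in either experiment, and every wildtype lung stood above every Foxf1+/- lung. Its mean was 7.43 ± 0.18 in Foxf1+/- and 8.85 ± 0.13 in wildtype lungs (SD), a log2 fold change of -1.37 ± 0.09 (SE), or 2.59-fold lower. In raw intensity, before any correction, the same probe read 103 to 247 in Foxf1+/- lungs and 311 to 503 in wildtype lungs, so that its groups did not overlap there either. In whole lungs, fewer cells that carry a transcript and less of it per cell cannot be told apart.

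The other Pcdha7 probe (ILMN_1215440) had a lowest, median and highest signal of 6.38, 6.72 and 6.94 in Foxf1+/- lungs, against 7.65, 8.47 and 8.60 in wildtype lungs. Here the wildtype lungs split by experiment, with 7.65 and 7.91 in experiment A below the 4 of experiment B at 8.40 to 8.60, while no Foxf1+/- lung reached the lowest of them. Its log2 fold change was -1.42 ± 0.11 (SE), or 2.68-fold lower. A dim probe of the same gene (ILMN_2689952) averaged 5.95 in Foxf1+/- and 6.11 in wildtype lungs, near the floor in both, with a log2 fold change of -0.16 ± 0.07, and ILMN_2677651 lay below the filter.

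Pcdhac2, 1 of the 2 C-type genes at the end of the alpha cluster, which neurons are known to use without the random choice made among the others, ran at 5.99, 6.43 and 6.80 (lowest, median, highest) in Foxf1+/- lungs, against 7.15, 7.24 and 8.0 in wildtype lungs. The groups did not overlap, and the Foxf1+/- mean of 6.4 ± 0.29 lay close to the floor, while that of wildtype lungs was 7.42 ± 0.35 (SD). The log2 fold change was -1.17 ± 0.12 (SE), or 2.26-fold lower, and the nearness of the floor makes its size uncertain. For Pcdha6 (ILMN_3076948) the lowest, median and highest signals were 6.28, 6.56 and 6.80 in Foxf1+/- lungs, against 7.04, 7.25 and 7.70 in wildtype lungs. Again no lung crossed over, and the log2 fold change was -0.90 ± 0.07 (SE), or 1.87-fold lower. The other Pcdha6 probe past the filter (ILMN_3155884) sat near the floor in both genotypes, at 6.09 ± 0.11 in Foxf1+/- and 6.02 ± 0.10 in wildtype lungs (SD), with a log2 fold change of 0.12 ± 0.06.

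**Figure D2:**
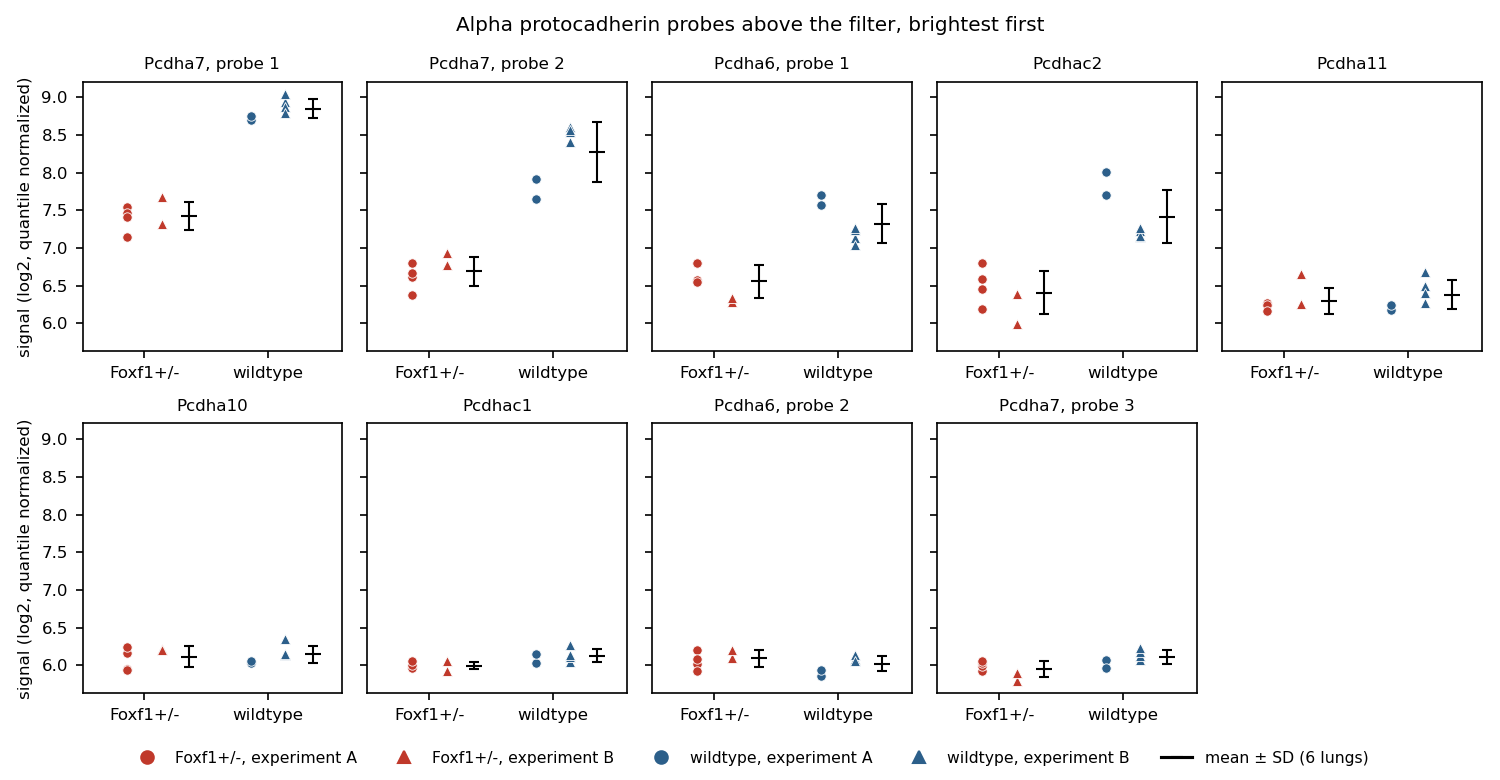
Log2 signal (y axis) of each lung for the 9 alpha probes past the filter, Foxf1+/- left of wildtype, circles for experiment A and triangles for experiment B, with mean and SD of 6 lungs beside them. In the first 4 panels no Foxf1+/- lung reaches a wildtype lung, and in the other 5 both genotypes lie near the floor, with group means of at most 6.38.

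The remaining 5 alpha probes past the filter, for Pcdha11, Pcdha10, Pcdhac1, Pcdha6 and Pcdha7, were near the floor in both genotypes, with log2 fold changes of -0.16 to 0.12 and none called. At an unadjusted p under 0.05, 6 of the 9 alpha probes were lower and 0 higher. Besides the 4 called ones these were the dim Pcdha7 probe (-0.16 ± 0.07, SE) and Pcdhac1 (-0.12 ± 0.05). By their group means the alpha probes divided into 4 that gave signal above the floor and were low in Foxf1+/- lungs, and 5 that lay near the floor in both genotypes. Single lungs of Pcdha11 read higher, with 6.65 in Foxf1+/- replicate 6 and 6.68 in wildtype replicate 4. Over all 9 the median log2 fold change was -0.16, a value that rests on which dim probes are counted. The 4 without overlap between genotypes compare with 0.683% of all probes tested whose 6 Foxf1+/- lungs all lay below the 6 wildtype ones (1.04% had all 6 above).

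Leaving out each lung in turn kept all 4 called, with log2 fold changes of -1.43 to -1.31 and -1.52 to -1.35 for the Pcdha7 probes, -1.31 to -1.07 for Pcdhac2 and -0.94 to -0.86 for Pcdha6. Within the experiments the values were -1.33 ± 0.12 in A and -1.41 ± 0.12 in B for the brighter Pcdha7 probe, and -0.95 ± 0.10 in A and -0.86 ± 0.10 in B for Pcdha6. Those of Pcdhac2 were -1.34 ± 0.17 in A and -1.01 ± 0.12 in B, and those of the other Pcdha7 probe -1.17 ± 0.13 in A and -1.67 ± 0.10 in B. In B the Foxf1+/- lungs averaged 6.31 for Pcdha6 and 6.19 for Pcdhac2, near the floor, so the size of these 2 values in B is uncertain. Foxf1+/- lungs were lower in each experiment for all 4, although with experiment A alone only the brighter Pcdha7 probe stayed called. These fits reuse the lungs on which the 4 probes were chosen, so they are a description and not a replication. The fold change of that other Pcdha7 probe differed between B and A by -0.50 ± 0.17 (limma, unadjusted p = 0.0115), but no probe on the array passed the adjusted threshold for such an interaction of genotype and experiment, whereas 1142 of 33947 (3.36%) had an unadjusted p under 0.05. 2 alpha probes were among these, and none of the beta, gamma or unclustered ones.

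**Figure D3:**
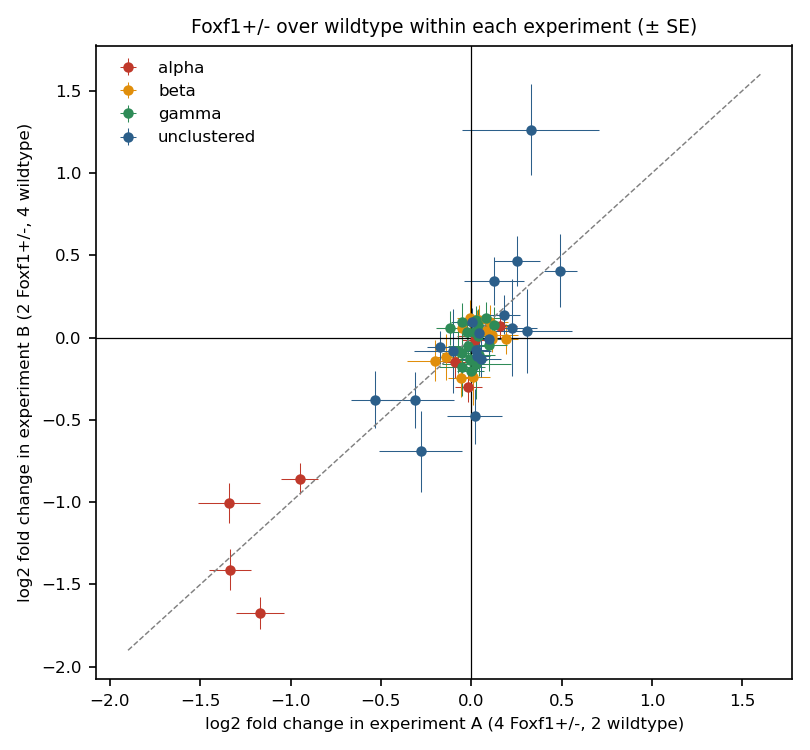
Log2 fold change of Foxf1+/- over wildtype lungs in experiment B (y axis, 2 Foxf1+/- and 4 wildtype lungs) against that in experiment A (x axis, 4 Foxf1+/- and 2 wildtype lungs), with SE, for the 61 protocadherin probes past the filter, and a dashed line where both are equal. The 4 called alpha probes lie at the lower left, at most -0.86 on both axes, the beta and gamma probes lie around 0, and the highest point is Pcdh20 at 0.33 in A and 1.26 in B.

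The 4 probes differed in how they varied with experiment. The experiment effect, which played no part in the choice of the family, was opposite in sign among them: signal in experiment B relative to A was lower for Pcdha6 (-0.42 ± 0.07, adjusted p = 0.000427 by limma) and for Pcdhac2 (-0.49 ± 0.12, adjusted p = 0.00553 by limma), and higher for the second Pcdha7 probe (0.49 ± 0.11, adjusted p = 0.00303 by limma). Such effects were common, with 42.2% of all probes called, 20.8% higher and 21.5% lower in B. For the brighter Pcdha7 probe the experiment effect was 0.15 ± 0.09, which was not called. The means of the second Pcdha7 probe in A and B were 7.78 and 8.53 in wildtype lungs, and 6.61 and 6.85 in Foxf1+/- lungs.

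In the beta cluster, whose genes each have an exon and a promoter of their own, 14 of 25 probes passed the filter and none was called for genotype (0 also at an unadjusted p under 0.05). Log2 fold changes ran from -0.17 to 0.10 with a median of 0.05. The probe with the highest signal, Pcdhb22, had a lowest, median and highest of 7.36, 7.84 and 8.08 in Foxf1+/- lungs, against 7.78, 8.06 and 8.36 in wildtype lungs. The groups overlapped between 7.78 and 8.08, and its log2 fold change of -0.17 ± 0.10 (SE) was the lowest of the cluster. Pcdhb7 had a log2 fold change of 0.00 ± 0.08, Pcdhb3 of -0.13 ± 0.08, and Pcdhb8, the highest, of 0.10 ± 0.07. Experiment moved 6 of the 14, with 4 higher in B (Pcdhb22, Pcdhb3, Pcdhb8 and Pcdhb1) and 2 lower (Pcdhb19 and Pcdhb7), between -0.42 ± 0.06 and 0.38 ± 0.10.

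The gamma cluster had the largest share of probes past the filter, 19 of 23, and none was called for genotype (0 also at an unadjusted p under 0.05). Log2 fold changes ran from -0.11 to 0.10, with a median of -0.03. Pcdhgb4 had a lowest, median and highest signal of 8.11, 8.72 and 9.24 in Foxf1+/- lungs, against 7.91, 8.34 and 9.04 in wildtype lungs, with a log2 fold change of -0.08 ± 0.11 (SE). For the C-type gene Pcdhgc5 these were 7.86, 8.65 and 9.05 in Foxf1+/- lungs, against 7.72, 8.30 and 8.87 in wildtype lungs, with a log2 fold change of -0.11 ± 0.12. Pcdhgc3, another C-type gene, had 7.16, 7.77 and 8.41 in Foxf1+/- lungs, against 6.90, 7.62 and 8.05 in wildtype lungs, with a log2 fold change of -0.07 ± 0.15. In all 3 the genotypes overlapped, and in Pcdhgb4 and Pcdhgc5 every lung of experiment A lay above every lung of B. The fold changes, fitted with experiment, were negative in all 3, although the pooled medians were higher in Foxf1+/- lungs. Their sign depended on the fit, although most of the 23 alternatives kept it, 21 for Pcdhgb4, 22 for Pcdhgc5 and 20 for Pcdhgc3. Alternatives gave -0.13 to 0.18 for Pcdhgb4, -0.18 to 0.15 for Pcdhgc5 and -0.16 to 0.16 for Pcdhgc3.

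Experiment, rather than genotype, was called for many gamma probes. Of the 19, 9 (47.4%) were lower in B and none higher, where 21.5% of all probes tested were lower and 20.8% higher. The difference of B from A was -0.78 ± 0.11 for Pcdhgb4 (adjusted p = 0.000176 by limma), -0.78 ± 0.12 for Pcdhgc5 (adjusted p = 0.000228) and -0.69 ± 0.15 for Pcdhgc3 (adjusted p = 0.00322). These 3 probes ran in parallel from lung to lung. Each had an SD of 0.43 or 0.44 over the 12 lungs, while the SD of their pairwise differences was 0.09 to 0.13. Pcdhga4 did not share this, with an experiment difference of 0.06 ± 0.07, nor did Pcdhgc4, with -0.15 ± 0.10 (both not called). Pcdhgb6 lay between them at -0.31 ± 0.07 (adjusted p = 0.00411 by limma).

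**Figure D4:**
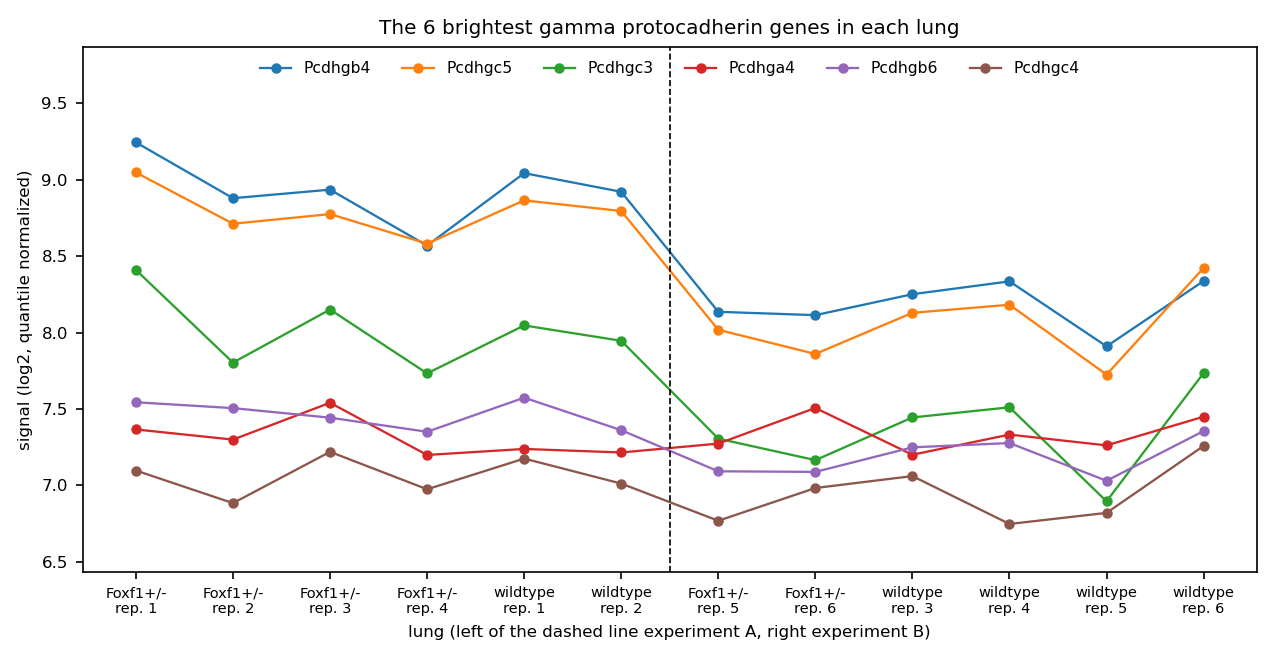
Log2 signal (y axis) of the brightest probe of 6 gamma genes in each of the 12 lungs (x axis), experiment A left and experiment B right of the dashed line, Foxf1+/- before wildtype in each. Lines join values of 1 probe, and only the course of each line is comparable, since heights of different probes are not. Pcdhgb4, Pcdhgc5 and Pcdhgc3 step down by 0.69 to 0.78 at the dashed line and run in parallel, while Pcdhga4 stays between 7.20 and 7.54.

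Outside the clusters, where each gene has its own promoter and a protein of its own, 19 of 27 probes for 10 of 11 genes passed the filter and none was called for genotype by limma. At an unadjusted p under 0.05, 3 were lower and 4 higher in Foxf1+/- lungs, where 7.45% and 9.07% of all probes tested were. The log2 fold changes ran wider than in the beta and gamma clusters, from -0.49 to 0.80, with a median of 0.03. The promoters of 2 of these genes, both on chromosome 14, are shown because Pcdh17 had the brightest probe of its group and Pcdh20 had the highest fold change of the family. The 250 bases before the start of each are from RefSeq (GRCm38.p6), read 5′ to 3′ on the strand of the gene, with capitals for TAAACA or its reverse complement TGTTTA, letters at the core of sites that forkhead factors are known to bind.
Pcdh17, chr14:84443313-84443562 (+): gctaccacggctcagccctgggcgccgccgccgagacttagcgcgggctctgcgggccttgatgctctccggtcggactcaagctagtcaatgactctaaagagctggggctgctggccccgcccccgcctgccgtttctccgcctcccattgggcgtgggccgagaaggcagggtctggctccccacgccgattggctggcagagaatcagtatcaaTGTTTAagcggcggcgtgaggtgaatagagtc
Pcdh20, chr14:88471397-88471646 (−): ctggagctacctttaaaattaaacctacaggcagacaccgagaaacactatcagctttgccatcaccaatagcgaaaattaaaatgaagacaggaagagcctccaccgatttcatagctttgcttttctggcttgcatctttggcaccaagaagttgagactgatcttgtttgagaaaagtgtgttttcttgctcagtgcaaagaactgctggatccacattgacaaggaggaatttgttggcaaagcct

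The 6 letters stood once before Pcdh17, with their first base 32 bases upstream of the start, and not before Pcdh20. They occurred in 1 of 10 promoters found for 9 of the 65 member genes, against 12% of 32851 promoters of the same length (either strand). The promoters also differed in CG pairs, 21 before Pcdh17 and 3 before Pcdh20, around a median of 6 over all promoters. A match of letters is a description and not a binding site, and promoters of the clustered genes are not shown.

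Pcdh17, a protocadherin of synapses, had a lowest, median and highest signal of 10.92, 11.27 and 11.62 in Foxf1+/- lungs, against 10.60, 11.14 and 11.61 in wildtype lungs. The groups overlapped between 10.92 and 11.61, and the log2 fold change was 0.14 ± 0.18 (SE), with 0.17 ± 0.19 on its second probe. Neither experiment nor genotype was called for it.

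Pcdh20, a protocadherin studied mostly in the brain, had a wide spread between lungs. Its brighter probe (ILMN_1237302) had a lowest, median and highest signal of 8.30, 8.79 and 9.67 in Foxf1+/- lungs, against 7.20, 8.03 and 8.95 in wildtype lungs. All but 1 of the wildtype lungs lay below all Foxf1+/- lungs, the exception being the 8.95 of wildtype replicate 2 in experiment A. The log2 fold change was 0.80 ± 0.28 (SE), or 1.74-fold higher, with 0.33 ± 0.38 for the lungs of A and 1.26 ± 0.28 for those of B. Leaving out each lung in turn gave 0.56 to 1.06. The dimmer probe of the gene had a log2 fold change of 0.23 ± 0.12, with wildtype lungs near the floor.

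Pcdh12 and Pcdh1 were the unclustered genes with the lowest fold changes. Pcdh12, known as a protocadherin of endothelial cells, had a lowest, median and highest signal of 9.52, 10.05 and 10.58 in Foxf1+/- lungs, against 10.15, 10.68 and 11.29 in wildtype lungs. The groups overlapped between 10.15 and 10.58. The log2 fold change was -0.49 ± 0.19 (SE), with -0.28 ± 0.23 in experiment A, -0.69 ± 0.25 in experiment B and -0.23 ± 0.14 on its second, dim probe. Leaving out each lung in turn gave -0.59 to -0.29, the value nearest 0 without Foxf1+/- replicate 6.

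Pcdh1, known from the airway epithelium, differed more between experiments than between genotypes. Its brighter probe had a lowest, median and highest signal of 9.73, 10.49 and 10.76 in Foxf1+/- lungs, against 9.9, 10.43 and 11.21 in wildtype lungs. Pooled, the medians were nearly alike. Within experiment A no lungs of the 2 genotypes overlapped, and in B only 1 wildtype lung, at 9.9, lay below the higher Foxf1+/- lung, at 9.95. In experiment A the 4 Foxf1+/- lungs averaged 10.62 and the 2 wildtype lungs 11.15, and in experiment B the 2 Foxf1+/- lungs averaged 9.84 and the 4 wildtype lungs 10.22. The signal was lower in B, with a difference of -0.85 ± 0.11 (adjusted p = 0.000104 by limma), and with experiment in the fit the log2 fold change was -0.46 ± 0.11 (SE). The second probe gave -0.35 ± 0.14 and its own experiment difference of -0.71 ± 0.14 (adjusted p = 0.00179 by limma). On that probe the genotypes overlapped within experiment A, with Foxf1+/- replicate 1 at 9.86 above the wildtype lungs at 9.61 and 9.75. The brighter probe was not called here, but it was in 4 of 23 alternative fits. These were the authors' processed values, a stricter filter, array weights and the fit without wildtype replicate 5. Over the 23 fits its log2 fold change ran from -0.53 to -0.17. The methods' t-test on the processed values called it as well.

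Of the other unclustered genes, Pcdh19, an X-linked gene of human epilepsy, had a lowest, median and highest signal of 6.87, 7.22 and 7.43 in Foxf1+/- lungs, against 6.28, 6.74 and 7.07 in wildtype lungs, with a log2 fold change of 0.45 ± 0.13 (SE). For Pcdh9 (brightest of 4 probes) these were 6.88, 7.14 and 7.33 in Foxf1+/- lungs, against 6.25, 6.74 and 6.97 in wildtype lungs, with 0.36 ± 0.11. On both of these probes the groups overlapped in a few lungs, and neither was called. Pcdh9 was called without Foxf1+/- replicate 1 and with array weights, and Pcdh19 without wildtype replicate 4. The further probes of Pcdh9, near the floor in both genotypes, had log2 fold changes of 0.16 ± 0.07, 0.04 ± 0.05 and -0.04 ± 0.06. A second Pcdh19 probe (ILMN_2694311), below the filter and at the floor, read 6.01 to 6.09 in Foxf1+/- and 5.92 to 6.01 in wildtype lungs without overlap, and the methods' t-test on the processed values, run without that filter, called it. Pcdh7 had -0.09 ± 0.18 on its brightest probe, and Pcdh10, Pcdh15 (a part of the tip links of hair cells) and Pcdh18 were near the floor with -0.12 to -0.02.

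**Figure D5:**
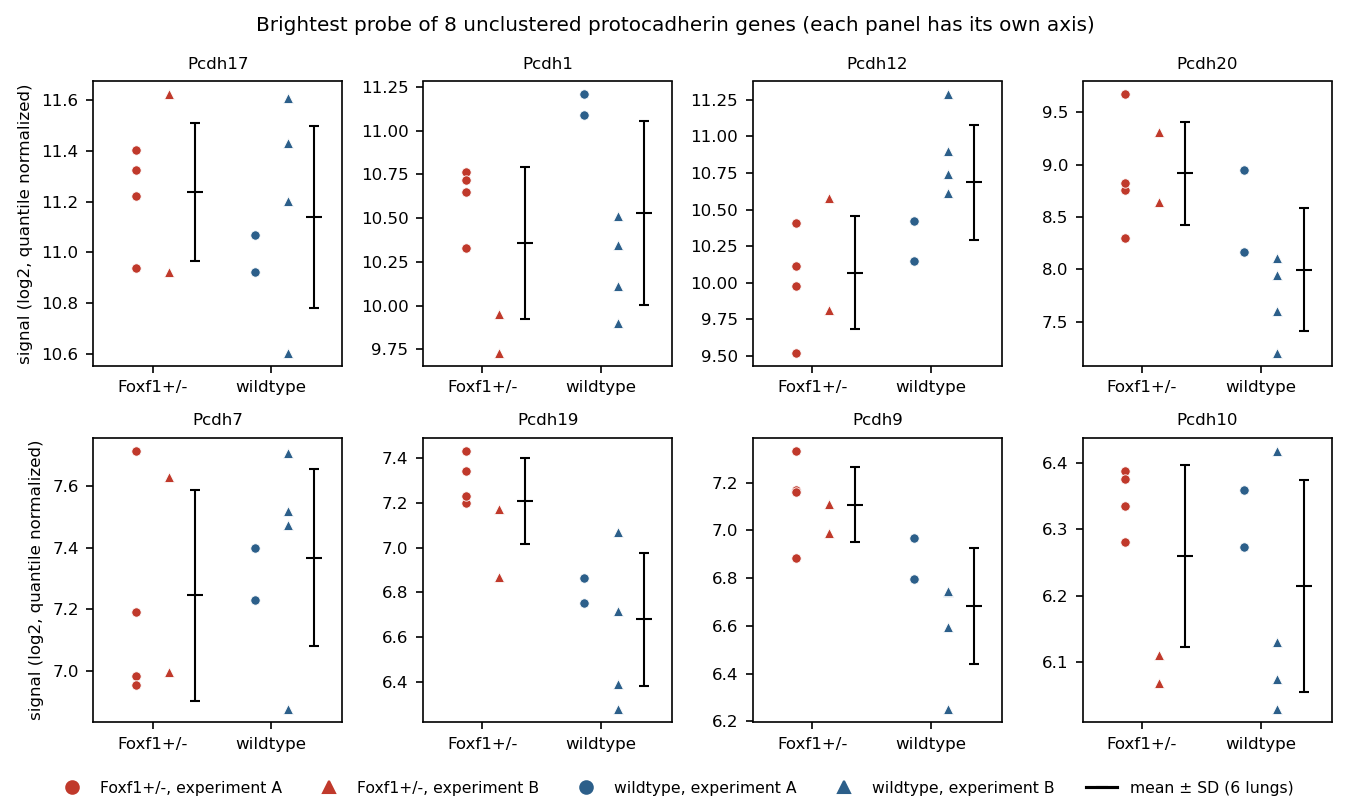
Log2 signal (y axis, a scale of its own in each panel) of each lung for the brightest probe of 8 unclustered genes, Foxf1+/- left of wildtype, circles for experiment A and triangles for experiment B, with mean and SD of 6 lungs. In every panel the genotypes overlap, Pcdh20 spans 7.20 to 9.67, and for Pcdh1 the circles of each genotype lie above its triangles.

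Gene lists related to the family were set beside the 2.97% of all probes called. Of 18 tested regulators that bind or modify the chromatin of the clustered protocadherins, 1 was called, Nipbl, which loads cohesin onto DNA, with a log2 fold change of -0.28 ± 0.07 (SE). The insulator protein Ctcf had -0.20 ± 0.10, the X-inactivation protein Smchd1 0.02 ± 0.07 and the DNA methyltransferase Dnmt3b 0.25 ± 0.07, none of them called. Of these 18 regulators, 2 were lower and 3 higher at an unadjusted p under 0.05, where 7.45% and 9.07% of all probes tested were. The median over the list was -0.01, against 0.00 over all probes tested. The call of Nipbl stayed in only 1 of 12 fits without 1 lung (wildtype replicate 1). Of 18 intracellular partners and proteases of protocadherins none was called (1 lower and 0 higher at an unadjusted p under 0.05, median 0.00), with the kinase Fyn at 0.07 ± 0.07 and the Wave complex gene Wasf1 at -0.27 ± 0.10. None of 20 classical cadherins was called (2 lower and 1 higher unadjusted, median -0.03), among them epithelial Cdh1 at 0.08 ± 0.14 and endothelial Cdh5 at -0.15 ± 0.09. Of 15 larger members of the superfamily only Celsr2 was called, at -0.29 ± 0.07 (2 lower and 1 higher unadjusted, median -0.03). Celsr2 stayed called in 2 of 12 fits without 1 lung (Foxf1+/- replicate 1 or wildtype replicate 6).

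Some markers of lung cell types moved with genotype as well. Of the markers of aerocytes, the capillary cells of gas exchange, 2 of 4 tested were called lower in Foxf1+/- lungs, Car4 at -2.13 ± 0.21 (SE) and Ednrb at -0.81 ± 0.10, while Apln and Fibin lay near the floor in both genotypes. Tbx2, the other marker of the list, was not near the floor in both genotypes and was not called. Unadjusted, 2 aerocyte markers were lower as well and 0 higher, so Tbx2 did not pass there either. The mean level of the 5 aerocyte markers was 8.29 to 8.73 over Foxf1+/- lungs and 9.0 to 9.29 over wildtype lungs, without overlap. That mean includes the called Car4 and Ednrb, so it does not show that the other aerocyte markers were lower. Among 7 endothelial markers Cldn5 was lower (-1.05 ± 0.11) and Emcn higher (0.56 ± 0.12), with list levels of 10.78 to 11.32 in Foxf1+/- and 10.90 to 11.43 in wildtype lungs, and of 7 mesenchymal markers Pdgfra was higher (0.46 ± 0.11), with 11.83 to 12.15 in Foxf1+/- and 11.51 to 11.98 in wildtype lungs. Unadjusted, 2 endothelial markers were lower and 2 higher, and 0 mesenchymal ones lower and 2 higher. None of the 7 epithelial, 10 neuronal and 3 glial markers tested was called, and at an unadjusted p under 0.05 there were 1 epithelial (Scgb1a1, lower), 1 neuronal (Uchl1, higher) and 0 glial ones. The neuronal list stood at 6.63 to 6.84 in Foxf1+/- lungs and 6.58 to 6.82 in wildtype lungs, and the glial list at 6.14 to 6.48 in Foxf1+/- and 6.11 to 6.47 in wildtype lungs. The calls of Cldn5, Car4 and Ednrb stayed in all 12 fits without 1 lung, that of Emcn in 7 and that of Pdgfra in 3. The part of these cell types in the low alpha signal was not tested.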

How the data were processed

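RNA of 12 whole lungs was measured, 1 array per lung. The authors deposited raw probe intensity on a linear scale, not background corrected, and processed log2 values, which per the study's methods were made with lumi (variance stabilizing transformation, then a robust spline) and corrected for 2 experiments with ComBat, whose versions the sources used here do not give. The raw table of intensity deposited was the starting point. Of 45281 probes, 18 with shifted cells were left out, which left 45263. Columns were matched to lungs by sample name. Symbols came from the annotation of the platform, with 34874 intact probes of 1 symbol, 18 of several and 10371 of none.

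Intensities were corrected with normexp in limma 3.58.1 under R 4.3.3 (offset 50, no control probes or detection values), log2 transformed and quantile normalized between arrays. The offset damps fold changes of dim probes. Probes with a mean above the 25th percentile were kept (33947). Limma fitted genotype and experiment per probe, two-sided, with Benjamini-Hochberg adjustment over all of them. Experiments were inferred by 2-means on 3 percentiles of each array's raw signal (5, 50 and 95, mean silhouette 0.73). Interaction of both was fitted separately. The pipeline was tested on simulated data. Nothing says whether lungs came from separate litters, and p-values measure the spread between these 12 lungs, whose number limits the precision.

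Named were Foxf1, called protocadherin probes and further probes of their genes, in each cluster the 3 brightest probes and the extremes of fold change, and called or defining members of the lists. Pcdh19, Pcdh9, Pcdh7, Pcdh10, Pcdh15 and Pcdh18, the probes called for experiment and the probe pairs were singled out after their values were seen. The family, its lists and tests were chosen with earlier results of these data known. In lists the brightest probe stood for a gene. Alternatives were other background corrections and offsets, scaling, the authors' processed values, other filters and blocks, each experiment alone, array weights, the methods' t-test and leaving out each lung.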

Additional observations from a re-analysis of the deposited data

Results flagged for a closer look

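In 6 of 128 groups of 6 lungs that were examined, 1 lung stood apart from the other 5 by Dixon's criterion. Chance alone gives about 1 in 20 where the lungs of a group come from the same distribution. Each group held lungs of both experiments, so that rate need not hold here. All 6 flagged values were of dim probes. Pcdha11 read 6.65 in Foxf1+/- replicate 6, where the next lung of the genotype had 6.27. Pcdha10 read 6.35 in wildtype replicate 3 with the next lung at 6.15, and Pcdhgb5 read 6.16 in wildtype replicate 1 with the next at 6.03. Low values were 5.82 for Pcdhb21 in wildtype replicate 6 (next 5.99), 5.88 for Pcdh15 in wildtype replicate 5 (next 6.13) and 6.00 for Pcdh9 (ILMN_1248508) in Foxf1+/- replicate 5 (next 6.06). None of these probes was called for genotype.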

How the results depend on the processing

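The 4 alpha probes were called under every alternative except experiment A alone, where the log2 fold change was -0.95 for Pcdha6, -1.17 for the dimmer called Pcdha7 probe and -1.34 for Pcdhac2, none of them called, and only 1 protocadherin probe was called. Other settings called 4 to 6. The size depended on the offset, with -1.80 to -1.27 over the 4 probes at an offset of 16 and -1.16 to -0.68 with the processed values. Pcdh1 was called with the processed values (-0.44), a filter at the 50th percentile (-0.46), array weights (-0.49), without wildtype replicate 5 (-0.51) and by the methods' t-test. The count over all probes was 1007, and 501 without the experiment block, 10 in experiment A alone, 56 in experiment B alone, 678 with scaling (497 higher and 181 lower) and 1579 with the methods' t-test on the processed values (227 with a fold of 1.5, of them 4 protocadherins). It was 405 to 1108 when each lung was left out, lowest without Foxf1+/- replicate 6 (405), wildtype replicate 1 (432) and Foxf1+/- replicate 5 (436).

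The median log2 fold change of the alpha probes was -0.34 at an offset of 16, -0.087 with the processed values, -0.022 without a filter, -1.27 with the filter at the 50th percentile, -0.088 in experiment A, -0.30 in experiment B and -0.53 to -0.14 with each lung left out, the lowest without wildtype replicate 6. That of the beta probes was -0.054 with the filter at the 50th percentile, 0.0029 in experiment B and 0.0036 to 0.059 with each lung left out, that of the unclustered probes 0.14 with the filter at the 50th percentile, and that of the gamma probes 0.063 without the experiment block. The cause of these moves was not tested.

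Replicate numbers did not pair the lungs: same-numbered deviations correlated at -0.39 to -0.05, and 0 of 12 lungs correlated best with their own number. With the replicate block, 149 probes were called, 4 of them protocadherins. Signals near the floor limit what the dim alpha, beta and gamma probes can show. Whether the alpha and gamma probes lie in shared exons was not examined, and experiments were inferred.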
